A study of Mus musculus with 12 samples.

Results

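Hyperoxia against room air was compared in the lungs of male *miR-30a*-/- mice, over the protein-coding genes with at least 200 raw read counts in each of the 6 male libraries. This rule kept 7772 of the 21936 protein-coding genes in the count table (35.4%), and all 7772 were among the 45828 genes tested. The genes were thus chosen by the counts of the lungs compared, and the numbers of genes that stand higher or lower are descriptions. The rule was decided largely by 1 lung, because hyperoxia lung M2 had the smallest library and held the lowest of the 6 counts for 7250 of the 7772 genes (93.3%). A further 1544 protein-coding genes reached 200 counts in every room air lung but not in every hyperoxia lung, against 79 with the reverse, so genes at the lower edge of expression are missing from the account in an unequal way. Just inside the rule, the 39 genes with a lowest count of 200 had log2 changes from -0.73 to 0.35, and just outside it, the 37 genes with a lowest count of 199 had log2 changes from -0.89 to 0.27.

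The mice were *miR-30a*-/- on the C57BL/6J background, with the whole *miR-30a* gene removed by CRISPR/Cas9 editing in every cell, so the room air lungs carried the same deletion. Pups of several litters were pooled and divided between 95% FiO2 from postnatal day (PND) 1 to PND 5 and room air, all recovered in room air, and whole lungs were taken on PND 21. The hyperoxia lungs are numbered M1, M2 and M3 and the room air lungs M1, M4 and M5, after their labels, and the numbers do not pair lungs. The same exposure was given to 3 females, with 3 females in room air, and these 6 libraries entered the model and served as lungs that the gene rule had not used. The comparison asks which well-expressed genes still differed in the male lung lacking *miR-30a* at PND 21, after the pups had recovered in room air. Wild-type lungs were not analysed here, so the deletion and the exposure are not set against each other.

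Hyperoxia of the newborn mouse is a model of bronchopulmonary dysplasia, in which alveoli stay large and few and capillaries are sparse. The exposure falls in the saccular stage, before most alveoli form, and PND 21 lies after the main wave of alveolar septation. *miR-30a* is a microRNA that lowers its target mRNAs by pairing of its seed, and the Notch ligand *Dll4* is one of its best known vascular targets.

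The male libraries held 8763033 to 13630152 counts, of which the 7772 genes took 74.5% to 76.7%, and 200 counts stood at 14.8 to 21.8 CPM (counts divided by library size after upper-quartile scaling). *Mir30a* had 0 counts in all lungs, so that the deletion could not be seen in these libraries, and *Ddx3y* of the Y chromosome had 270 to 715 counts in the males and 0 in the females. Room air lung M1 stood apart. The summed level of 46 skeletal muscle genes was 8659 CPM in it and 1128 to 1428 CPM in the other male lungs, and that of 41 squamous and basal epithelial genes was 2591 CPM against 714 to 893 CPM. The log2 changes of most named genes and most counts over lists are therefore given with this lung and without it. Lung identity was clear in every male library, with *Sftpc*, the surfactant protein made by alveolar type 2 cells, at 2240 CPM in room air M1, 3408 in M4 and 2716 in M5, and at 4144 in hyperoxia M1, 1970 in M2 and 3149 in M3.

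No gene was called. In edgeR's quasi-likelihood test the smallest Benjamini-Hochberg adjusted p among the 7772 genes was 0.494, and the share called among all 45828 genes was 0%. At an unadjusted p under 0.05, 61 genes were higher after hyperoxia and 53 lower, which is 0.785% and 0.682% of the genes, beside 0.899% and 1.8% of all genes tested. The 3 hyperoxia lungs lay wholly above the 3 room air lungs for 157 genes (2.02%, against 2.73% of all genes tested) and wholly below them for 98 (1.26%, against 3.89%). These shares were below the background in both directions. Some alternative fits called a few of the 7772 genes. RUVr, the removal of unwanted variation that the study's own processing used, called 2 genes higher and 0 lower with 1 factor (0.0131% and 0.0218% of all genes tested), 5 higher and 2 lower with 2 factors (0.0196% and 0.133%), and 5 higher and 2 lower with 3 factors (0.0218% and 0.164%). With 2 and with 3 factors the 2 lower genes were *Aldoa* and *Des*, both highest in room air M1. Without that lung, in the first fit, their log2 changes were -0.18 and -0.04. A fit with the olfactory and vomeronasal receptor share of each library as a covariate, chosen after seeing the data, called 0 higher and 2 lower (0.00218% and 0.0109%). Without room air M1, in the first fit, no gene was called (smallest adjusted p 0.977, share called among all genes 0%), 11 genes were higher and 36 lower at an unadjusted p under 0.05 (background 0.87% and 0.985%), and the groups were apart for 219 genes upward and 234 downward (background 6.35% and 6.71%). The median log2 change of the 7772 genes was 0.05 with all lungs, where 67.5% stood higher after hyperoxia, and 0.01 without room air M1, where 52.8% did. The median over all genes tested was -0.01 with all lungs.

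Over the well-counted genes as a whole, both extremes of the comparison lay among the hyperoxia lungs. Hyperoxia M1 had the highest CPM of the 6 lungs for 5023 genes and hyperoxia M2 the lowest for 4392. Leaving out hyperoxia M2 gave 1757 genes with the groups apart upward (22.6%, background 9.56%) and 303 downward (3.9%, background 13.4%). Leaving out hyperoxia M1 gave 271 upward and 412 downward (background 9.45% and 6.94%). With 1 lung fewer, groups come apart more easily, and without room air M4, room air M5 or hyperoxia M3 the counts were 476, 319 and 276 upward (background 6.07%, 6.1% and 5.38%) and 166, 200 and 141 downward (background 9.57%, 7.53% and 7.48%). Reads on olfactory and vomeronasal receptor genes, which the lung is not known to use broadly and which therefore serve as a gauge of background, made up 0.515% of the counts in hyperoxia M1, 0.945% in hyperoxia M2 and 0.724% in hyperoxia M3, and 0.9%, 0.642% and 0.769% in room air M1, M4 and M5. With their share as a covariate, an alternative chosen after seeing the data, the median log2 change of the 7772 genes was -0.007, beside 0.05 in the main fit. Whether these reads caused the spread was not tested.

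The alveolar type 2 and capillary lists had the same 2 lungs at their extremes. The 27 alveolar type 2 genes summed to 16524 CPM in hyperoxia M1 and 8089.9 in hyperoxia M2, with 11917 in hyperoxia M3, and to 9197, 13908 and 10457 CPM in room air M1, M4 and M5. The 31 capillary endothelial genes summed to 10739, 5309.7 and 8371 CPM in hyperoxia M1, M2 and M3 and to 5610.3, 9184 and 7571 CPM in the room air lungs. In both lists the room air lungs lay between the highest and the lowest hyperoxia lung. Many other lists had the same 2 lungs at their extremes, among them alveolar type 1 genes (8353.8, 4077.1 and 6371 CPM in hyperoxia M1, M2 and M3 against 4537, 7062 and 5787 CPM) and the collagen and elastic fiber, VEGF, Notch and TGF-beta and BMP lists. Among the lists with another male lung at an extreme, club and airway secretory genes were highest in room air M4 (9782 CPM, against 9122 in hyperoxia M1) and motile cilia genes were lowest in hyperoxia M3 (1253 CPM).

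**Figure D1:**
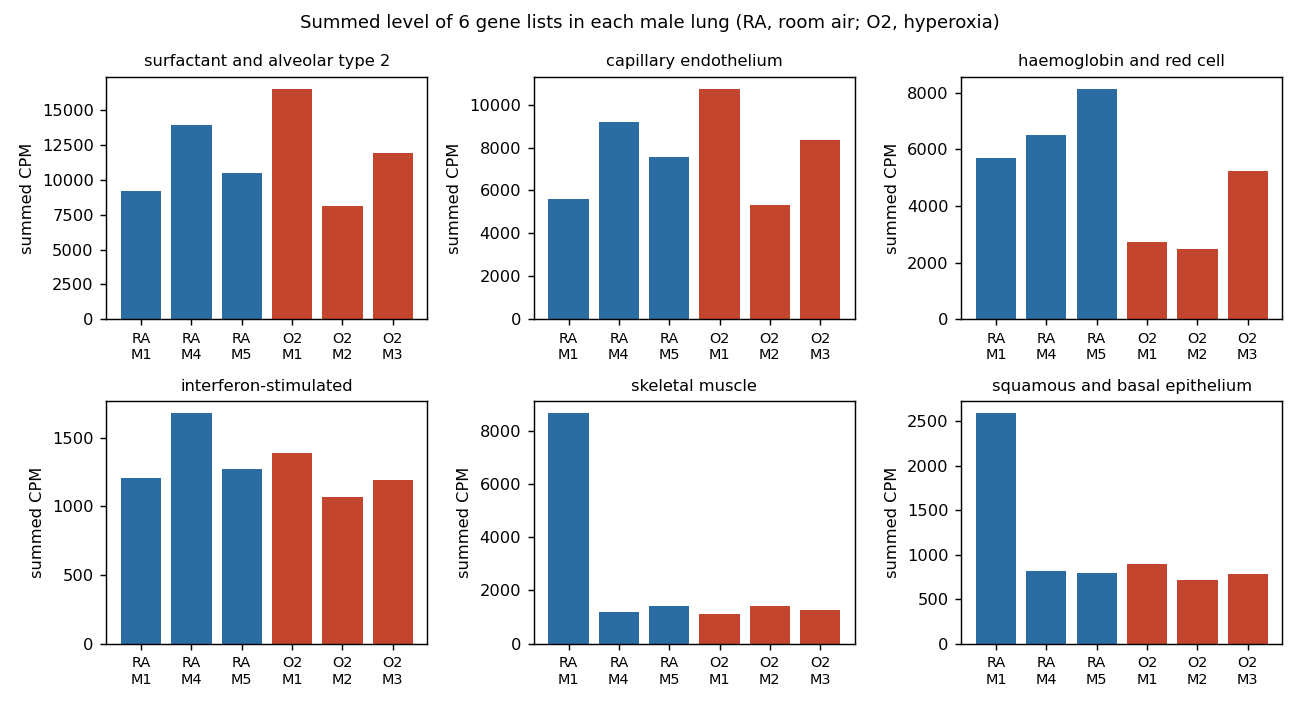
Summed CPM of 6 gene lists in each of the 6 male lungs, with room air lungs in blue and hyperoxia lungs in red and 1 bar per lung. The alveolar type 2 and capillary sums are highest in hyperoxia M1 and lowest in hyperoxia M2, the hemoglobin and red cell sum is lower in each hyperoxia lung than in each room air lung, and the skeletal muscle and squamous sums stand out in room air M1.

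The gene with the largest increase was *Cyp26b1* (ENSMUSG00000063415, chromosome 6 of mm10, 84571414 to 84593908), which encodes the enzyme that breaks down retinoic acid. Retinoic acid drives the formation of alveolar septa, and CYP26 enzymes set where in a tissue it acts. *Cyp26b1* stood at 98.9, 46.4 and 54.3 CPM in hyperoxia M1, M2 and M3 and at 22.8, 29.0 and 23.7 CPM in room air M1, M4 and M5. The lowest hyperoxia lung was well above the highest room air lung, and the hyperoxia lungs were spread over a wide range. The log2 change was 1.40 (SE 0.25, 2.65-fold), with an unadjusted p of 1.08e-05 and an adjusted p of 0.494. Without room air M1 it was 1.34, and over all alternatives it lay between 1.01 and 1.61. In a fit of the 6 male libraries alone *Cyp26b1* was the only one of the 7772 genes called, with an adjusted p of 0.0293 and a log2 change of 1.40 (0.00229% of all genes tested were called higher in that fit). In the females it had 39.1, 24.9 and 57.1 CPM after hyperoxia and 25.5, 29.6 and 26.9 CPM in room air, groups that overlap, with a log2 change of 0.56 (SE 0.25, adjusted p 0.382). The difference of the changes between the sexes did not pass (adjusted p 0.578).

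The RefSeq sequence around the start of *Cyp26b1* is shown because it is the gene with the largest increase, and retinoic acid can act on genes through pairs of half-sites spaced by 5 bases. The window runs from 250 bases before the start to 50 after it (GRCm38.p6), and of the 7772 genes 6171 had such an entry. Neither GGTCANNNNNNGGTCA nor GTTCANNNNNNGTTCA, searched on both strands, was in it, so no letters are in capitals. These runs are in 0.0814% and 0.074% of the 27025 promoters of the same length. Runs this rare are seldom found, and mixed pairs or other spacings were not searched, so their absence decides nothing about control by retinoic acid.
Cyp26b1 promoter, chr6:84593761-84594060 (minus strand): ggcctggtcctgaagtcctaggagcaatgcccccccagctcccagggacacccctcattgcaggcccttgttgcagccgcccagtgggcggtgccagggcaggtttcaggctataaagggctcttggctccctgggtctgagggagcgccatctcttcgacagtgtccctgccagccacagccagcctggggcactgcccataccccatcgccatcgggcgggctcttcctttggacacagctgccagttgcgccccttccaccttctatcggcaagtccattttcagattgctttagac

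The other 11 genes of the 12 largest increases with the groups apart had smaller log2 changes, from 0.35 to 1.07. *Chil3*, which encodes the chitinase-like protein Ym1 of alveolar macrophages, stood at 224.6, 125.8 and 129.2 CPM in the hyperoxia lungs and at 53.5, 107.0 and 67.5 CPM in the room air lungs. Its groups were apart by a narrow margin, and the log2 change was 1.07 (SE 0.50), and 0.88 without room air M1. Of the 13 well-counted alveolar macrophage and myeloid genes 9 stood higher and 4 lower (median log2 change 0.05). Without room air M1 8 stood higher and 5 lower (median 0.03). *Lpl*, lipoprotein lipase, which frees fatty acids for uptake by cells such as the lipid-storing fibroblasts of the septa, had 135.0, 94.3 and 128.3 CPM after hyperoxia and 77.7, 85.1 and 78.4 CPM in room air (log2 change 0.57, SE 0.23, and 0.55 without room air M1). *Angptl4*, an inhibitor of that lipase and a target of PPAR and glucocorticoid receptors, had 39.7, 28.0 and 43.9 CPM against 25.6, 24.5 and 28.9 CPM (log2 change 0.50, SE 0.18, and 0.48 without room air M1). *Angptl4* of hyperoxia M2 lay inside the room air range, whereas *Lpl* did not overlap.

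*Galnt15*, which starts mucin-type O-glycans, had 35.8, 30.4 and 41.5 CPM in the hyperoxia lungs and 28.1, 23.998 and 21.6 CPM in room air, and its log2 change went from 0.55 to 0.66 when room air M1 was left out. *Hif3a*, a hypoxia-inducible factor subunit that can hold back the others, had 56.5, 54.6 and 65.6 CPM against 32.0, 41.2 and 50.03 CPM, with a log2 change of 0.52 (SE 0.19), and 0.37 without room air M1. The remaining members of this group were *Fam13a* (log2 change 0.47), the lysosomal sialic acid exporter *Slc17a5* (0.42), the cytochrome P450 *Cyp2d22* (0.40), the cyclic GMP phosphodiesterase *Pde9a* (0.38), the hyaluronan synthase *Has3* (0.36), the neuronal adhesion gene *Amigo1* (0.36) and the ubiquitin ligase subunit *Crbn* (0.35), and without room air M1 they ranged from 0.28 for *Pde9a* to 0.39 for *Fam13a*. Without room air M1 *Slc17a5*, *Cyp2d22*, *Pde9a*, *Amigo1* and *Crbn* left the 12 largest increases, *Crbn* because its groups were no longer apart, and in their place came *Gprc5c*, the pericyte gene *Rgs5*, the iron reductase *Cybrd1*, *Fmo5* and *Gtdc1*, at log2 changes of 0.36 to 0.42. In 9 of the 12 genes hyperoxia M1 was the highest hyperoxia lung and in 11 hyperoxia M2 was the lowest, and room air M1 was the lowest room air lung in 9.

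**Figure D2:**
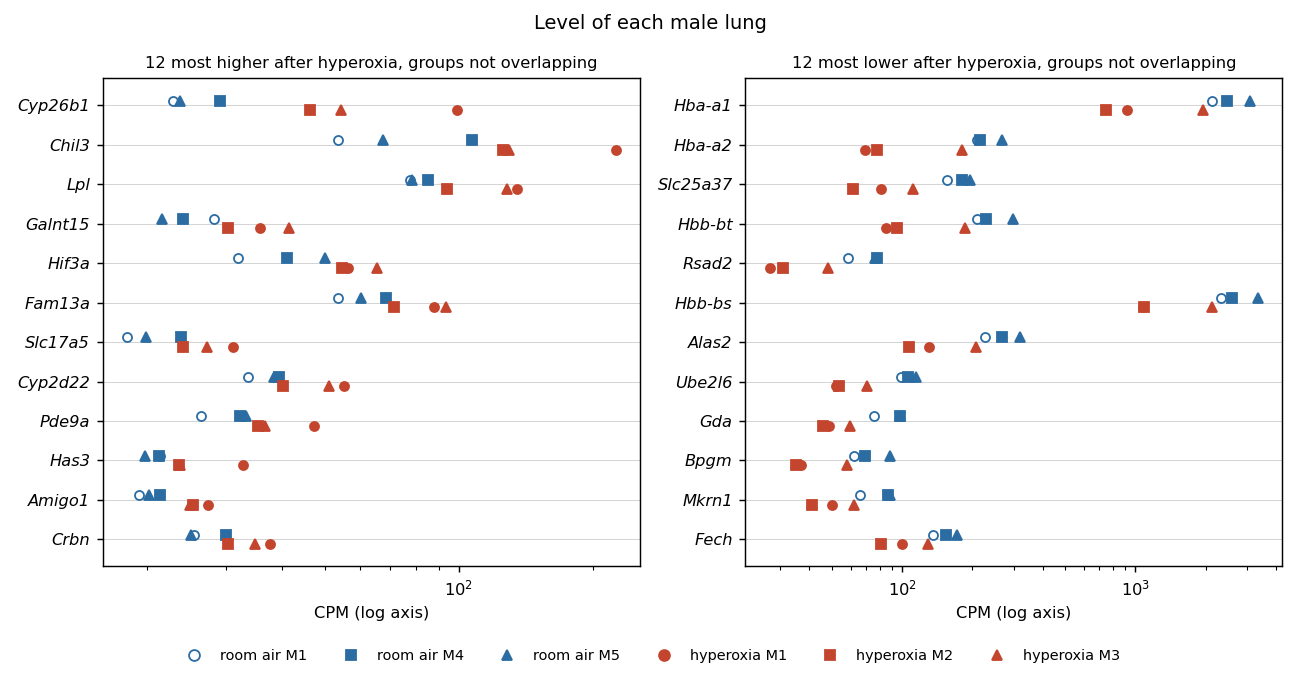
CPM on a log axis of the 12 genes most higher (left) and the 12 most lower (right) after hyperoxia among those whose 3 hyperoxia lungs (red) and 3 room air lungs (blue) did not overlap, 1 symbol per lung with room air M1 open. *Cyp26b1* is set widest apart on the left, and on the right hyperoxia M3 is the hyperoxia lung nearest to room air for all 12 genes.

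In the females, which had no part in choosing these genes, the groups were apart upward for 0 of the 12 genes (2.33% of the 7772 genes, background 10.8%). Of the 12, 7 stood higher and 5 lower, with a median log2 change of 0.01, while 83.5% of the 7772 genes stood lower in females, with a median of -0.25. The difference between the sexes did not pass for any of the 12, with adjusted p of 0.578 or more, and it was called for 0 of the 7772 genes (0% of all genes tested). With 1, 2 and 3 RUVr factors it was called for 399, 419 and 419 of them, or 5.13%, 5.39% and 5.39%, close to the 4.59%, 4.84% and 5.22% of all genes tested. At an unadjusted p under 0.05 the change was more positive in males for 462 genes (5.94%) and more negative for 70 (0.901%). Over all genes tested the split was the reverse, at 2.4% and 6.06%, or 8.46% in both directions together.

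Among genes with the groups apart, the 12 with the largest decreases belonged mostly to the red blood cell. Of the 19 hemoglobin and red cell genes listed, 11 were well counted, all 11 stood lower after hyperoxia, 8 had the groups apart (background 3.89%) and 10 had an unadjusted p under 0.05 (background 1.8%), with a median log2 change of -0.82. The median was -0.98 without room air M1, where 10 had the groups apart (background 6.71%), so the lung with the muscle reads made this difference smaller. In whole lung RNA, fewer cells of a type and less RNA per cell cannot be told apart. The methods state that the right ventricle was flushed with cold PBS before freezing, and the blood left in each lung was not measured.

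The alpha globin gene *Hba-a1* (ENSMUSG00000069919, chromosome 11, 32283511 to 32284465) had 916, 745.5 and 1952 CPM in hyperoxia M1, M2 and M3 and 2138, 2458 and 3089.6 CPM in room air M1, M4 and M5. Hyperoxia M3 came close to the lowest room air lung, and the other hyperoxia lungs were far below it. Its log2 change was -1.09 (SE 0.41, 2.13-fold lower), and -1.20 without room air M1. *Hba-a2*, *Hbb-bt* and *Hbb-bs*, the other globins, had log2 changes of -1.09, -1.01 and -0.95, and of -1.15, -1.11 and -1.05 without room air M1. The alpha pair and the beta pair are near copies of each other, so how reads were divided within a pair is uncertain.

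No list of heme and iron genes was tallied, and those given here come from the red cell list or from the 12 largest decreases. *Alas2*, the rate-limiting enzyme of heme synthesis in red cell precursors, had 130.4, 107.0 and 206 CPM against 227, 268 and 319 CPM, and a log2 change of -0.87 (SE 0.27), and -0.98 without room air M1. *Slc25a37*, mitoferrin, which brings iron into mitochondria, had 81.2, 61.5 and 112 CPM against 156, 181 and 196 CPM, and a log2 change of -1.06 (SE 0.25, unadjusted p 0.000189, adjusted p 0.9998), and -1.15 without room air M1. *Fech*, which inserts the iron into heme, was at -0.58, and -0.66 without room air M1. *Bpgm*, which makes the 2,3-bisphosphoglycerate of red cells, was at -0.76, and the ubiquitin ligase gene *Mkrn1*, abundant in late red cell precursors, at -0.66, and without room air M1 they were at -0.86 and -0.78. The anion exchanger *Slc4a1* (-0.82) and the poly(A) polymerase *Tent5c* (-0.78) had hyperoxia M3 inside the room air range. The groups of both genes were apart without room air M1, at -1.03 and -0.91. Among the other listed genes, carbonic anhydrase *Car2* was at -0.48 (-0.66 without room air M1) and the transferrin receptor gene *Tfrc* at -0.18 (-0.21), both named after their values were seen. *Prdx2*, the peroxiredoxin that is abundant in red cells, had 34.0, 30.2 and 39.7 CPM against 44.3, 46.3 and 45.2 CPM (log2 change -0.38, and -0.40 without room air M1).

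The promoters of *Alas2* and *Hbb-bs* are shown because they stand for the genes that were lower together and because GATA1 and KLF1 are the transcription factors through which red cell precursors switch such genes on. In *Alas2* the capitals mark the GATA letters AGATAA and overlapping runs of the CACC letters CCNCACCC, all on the reverse strand. In *Hbb-bs* they mark AGATAA, CCNCACCC and CCAAT, in this order. On both strands AGATAA is in 11.4%, CCNCACCC in 16.4% and CCAAT in 37.9% of the 27025 RefSeq promoters, and the matches are letters, not bound sites.
Alas2 promoter, chrX:150547167-150547466 (plus strand): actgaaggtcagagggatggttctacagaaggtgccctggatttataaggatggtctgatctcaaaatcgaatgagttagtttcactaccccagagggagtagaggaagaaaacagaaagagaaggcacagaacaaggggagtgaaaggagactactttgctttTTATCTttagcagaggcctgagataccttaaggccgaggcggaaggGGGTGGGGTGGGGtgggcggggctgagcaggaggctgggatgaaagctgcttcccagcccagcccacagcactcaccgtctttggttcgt
Hbb-bs promoter, chr7:103827879-103828178 (minus strand): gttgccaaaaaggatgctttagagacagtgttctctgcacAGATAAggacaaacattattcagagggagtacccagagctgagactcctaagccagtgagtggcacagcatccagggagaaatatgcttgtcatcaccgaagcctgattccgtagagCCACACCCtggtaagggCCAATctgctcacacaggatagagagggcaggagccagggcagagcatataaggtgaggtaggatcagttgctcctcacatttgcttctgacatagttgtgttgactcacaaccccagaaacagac

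*Rsad2* (ENSMUSG00000020641, chromosome 12, 26442746 to 26456452) encodes viperin, an antiviral enzyme induced by interferon, and had 27.03, 30.9 and 47.9 CPM in the hyperoxia lungs and 58.5, 77.9 and 76.6 CPM in the room air lungs. All hyperoxia lungs were below all room air lungs, with a log2 change of -1.01 (SE 0.27, 2.01-fold lower), and -1.13 without room air M1. *Rsad2* stood apart from the other interferon-stimulated genes in size. Of the 54 listed, 20 were well counted, 19 of these stood lower after hyperoxia and 20 did without room air M1. Only *Rsad2* had the groups apart with all lungs (background 3.89%), and 2 genes did without room air M1 (background 6.71%). The median log2 change of the 19 genes other than *Rsad2* was -0.15 with all lungs and -0.25 without room air M1. The next was *Oasl2* with 50.2, 33.4 and 38.5 CPM against 47.3, 70.5 and 39.4 CPM (log2 change -0.36 and -0.43 without room air M1), where hyperoxia M1 lay within the room air range and M2 and M3 below it. *Ube2l6*, which attaches the interferon-induced modifier ISG15 and is also abundant in red cell precursors, had 51.8, 53.6 and 70.5 CPM against 98.5, 105.9 and 114.7 CPM (log2 change -0.86, SE 0.21, and -0.91 without room air M1).

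The promoter of *Rsad2* is shown because the core of the interferon-stimulated response element, GAAANNGAAA, lies in it once, on the reverse strand and in capitals. This run is in 3.49% of the 27025 promoters searched on both strands.
Rsad2 promoter, chr12:26456403-26456702 (minus strand): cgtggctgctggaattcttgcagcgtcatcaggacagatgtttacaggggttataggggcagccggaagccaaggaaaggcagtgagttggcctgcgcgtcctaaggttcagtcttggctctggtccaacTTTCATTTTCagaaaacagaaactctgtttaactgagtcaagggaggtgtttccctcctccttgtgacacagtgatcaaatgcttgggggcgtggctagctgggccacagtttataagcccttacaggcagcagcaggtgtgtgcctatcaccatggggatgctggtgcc

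*Gda*, guanine deaminase, which turns guanine into xanthine, had 48.4, 45.8 and 59.4 CPM after hyperoxia and 75.6, 97.5 and 97.3 CPM in room air. The groups were clearly apart, and the log2 change was -0.81 (SE 0.21, 1.76-fold lower), and -0.92 without room air M1. All 12 of these decreases had hyperoxia M3 as the highest hyperoxia lung, and in all 12 room air M1 was the lowest room air lung.

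The female lungs, not used to choose these genes, lay on the same side. Female hyperoxia lungs were wholly below female room air lungs for 12 of the 12 genes, with a median log2 change of -1.39. Over the 7772 genes the share wholly below was 18.7% and the median -0.25, and over all genes tested the share was 6.42%. *Gda* fell in the females, with 28.3, 46.8 and 43.8 CPM after hyperoxia against 130.1, 88.4 and 97.2 CPM (log2 change -1.41, SE 0.21, adjusted p 0.0176), and it was the only one of the 7772 genes called in that comparison. The share of all genes called lower there was 0.00218%. For the other 11 genes the adjusted p in females was between 0.0756 for *Slc25a37* and 0.295 for *Hbb-bs*. The change did not differ between the sexes for any of the 12 past the threshold, and for *Gda* the difference was 0.60 on the log2 scale (SE 0.30, adjusted p 0.578).

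**Figure D3:**
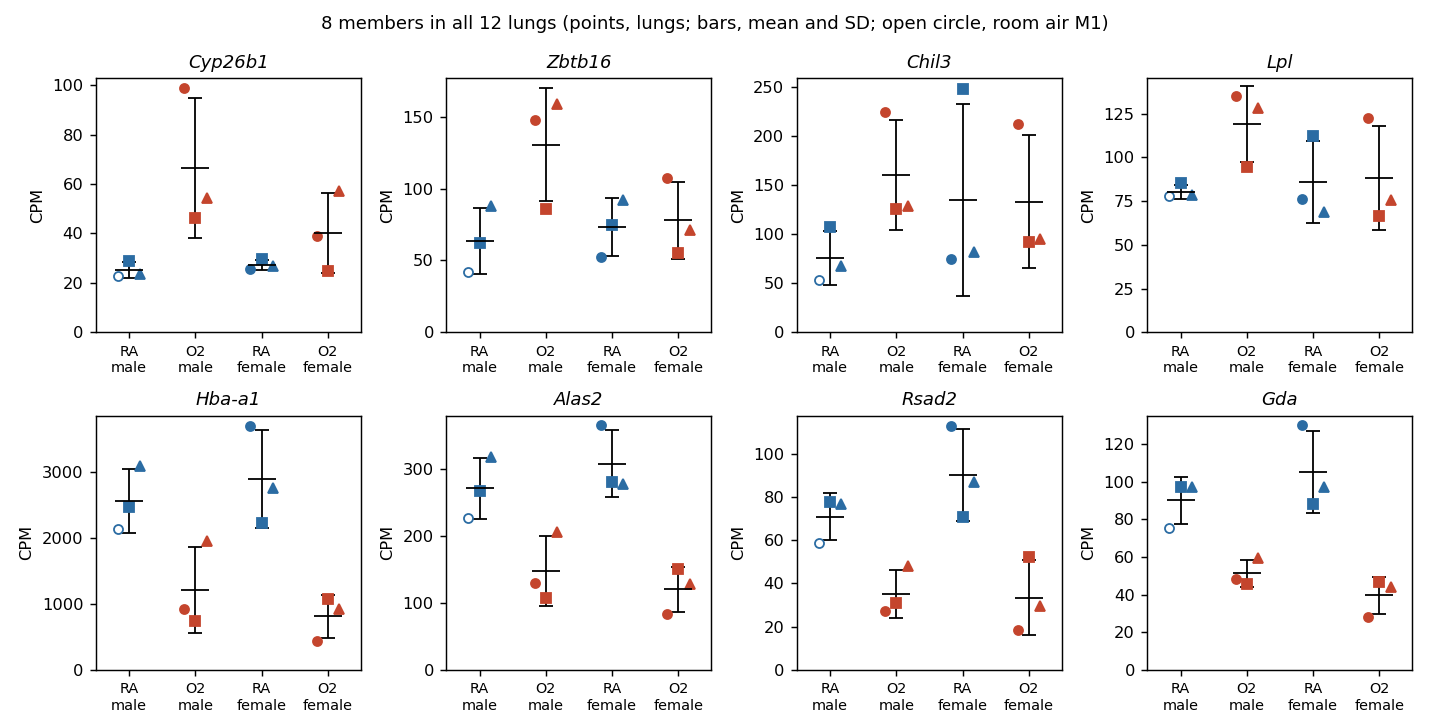
CPM of 8 genes in all 12 lungs by sex and exposure, with 1 point per lung, a bar at the mean and whiskers of 1 SD over 3 lungs, and room air male M1 as an open circle. *Hba-a1*, *Alas2*, *Rsad2* and *Gda* are lower after hyperoxia in both sexes without overlap, whereas *Cyp26b1*, *Zbtb16*, *Chil3* and *Lpl* overlap between exposures in the females.

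Genes induced by glucocorticoids were among the higher ones. Of the 15 well-counted genes of this list 13 stood higher, with a median log2 change of 0.21, beside 0.05 for all 7772 genes, but only 9 did without room air M1, where the median was 0.01. *Zbtb16*, a transcription factor gene with a strong response to the hormone, had 147.7, 85.4 and 158.7 CPM in the hyperoxia lungs and 41.7, 62.2 and 87.6 CPM in room air. Hyperoxia M2 was just below room air M5, so the groups overlapped. The log2 change was 1.03 (SE 0.28, unadjusted p 0.000832) and 0.81 without room air M1. *Fkbp5*, the receptor's co-chaperone gene, named here after its values were seen, had 39.6, 39.8 and 53.8 CPM against 33.8, 34.5 and 36.6 CPM, apart by a small margin (log2 change 0.35, and 0.33 without room air M1). In the females 12 of the 15 stood lower, with a median of -0.36 beside -0.25 for all 7772 genes.

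Clock genes had a similar course, with 17 of 18 higher and a median log2 change of 0.15, and 14 of 18 higher and 0.08 without room air M1. *Per3* had 173.6, 95.2 and 137.5 CPM after hyperoxia and 88.1, 105.8 and 95.6 CPM in room air, and *Per2* had 102.6, 61.7 and 116.9 CPM against 49.6, 73.0 and 79.4 CPM, with log2 changes of 0.49 and 0.48, and of 0.43 and 0.31 without room air M1. In both, hyperoxia M2 lay inside the room air range and the others above it. None of the 18 had the groups apart (background 2.73% upward and 3.89% downward). The time of day of tissue collection is not given in the sources used here.

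Of 15 well-counted genes of smooth muscle, myofibroblasts and pericytes 9 stood lower, with a median log2 change of -0.05, and 6 did without room air M1, with a median of 0.06. In this list the growth factor receptor gene *Pdgfra*, which marks the fibroblasts that build septa, had 361, 189 and 331 CPM after hyperoxia and 146, 234 and 208 CPM in room air (log2 change 0.59, SE 0.28, and 0.42 without room air M1). *Lox*, lysyl oxidase, which crosslinks collagen and elastin, had 198.9, 88.6 and 160.3 CPM against 65.4, 109.9 and 93.1 CPM (log2 change 0.74, SE 0.27, and 0.56 without room air M1). *Abca1*, the cholesterol exporter, had 320, 183 and 273 CPM against 118, 189.9 and 182 CPM (log2 change 0.66, SE 0.27, and 0.48 without room air M1), and *Lyve1*, the hyaluronan receptor gene, had 196.9, 97.3 and 165.3 CPM against 71.9, 127.6 and 94.6 CPM (log2 change 0.65, SE 0.26, and 0.47 without room air M1). In all 4 genes hyperoxia M1 and M3 were above every room air lung and hyperoxia M2 was not. *Lyve1*, *Abca1* and *Lox* passed the thresholds in some fits with factors of unwanted variation removed, but were not called otherwise.

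Other genes of matrix stood lower. Of 47 collagen and elastic fiber genes 30 were lower, with a median log2 change of -0.07, and 35 were lower without room air M1, with a median of -0.08. *Tnc*, tenascin-C, a matrix protein of developing lung, had 57.2, 40.8 and 48.3 CPM after hyperoxia and 73.1, 66.3 and 62.2 CPM in room air, with the groups apart and a log2 change of -0.46 (SE 0.19), and -0.39 without room air M1. Of 21 mitosis and DNA replication genes 16 were lower (median log2 change -0.10), 13 were without room air M1 (median -0.07), and in females 13 of the 21 were higher, though not the next 2 genes, which were lower in females too (log2 change -0.25 for *Mki67* and -0.71 for *Ccnd1*, the latter with the female groups apart). *Mki67*, the marker of cycling cells, had 44.2, 41.5 and 46.2 CPM against 63.8, 67.3 and 51.2 CPM (log2 change -0.47, SE 0.19, and -0.43 without room air M1), and *Ccnd1*, cyclin D1, had 42.8, 27.9 and 33.1 CPM against 46.5, 60.3 and 43.4 CPM (log2 change -0.53, SE 0.20, and -0.58 without room air M1). In both the hyperoxia lungs were below all room air lungs, by less than 1 CPM for *Ccnd1*. Of the 4 well-counted genes of the neutrophil list 3 stood higher and 1 lower (median log2 change 0.13, and 0.07 without room air M1). The lower one, *Hdc*, the histamine-forming enzyme of mast cells, basophils and neutrophils, had 28.9, 30.7 and 28.8 CPM against 38.7, 37.7 and 33.4 CPM (log2 change -0.31, and -0.27 without room air M1).

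Antigen presentation genes were lower in 15 of 18 cases, with a median log2 change of -0.12, and in 16 of 18 without room air M1, with a median of -0.26. *B2m*, the light chain of class I molecules, had 267, 185 and 223 CPM after hyperoxia and 234, 432 and 254 CPM in room air, so that 1 room air lung, M4, stood far above the rest (log2 change -0.45, and -0.61 without room air M1). In the females all 18 were lower, with a median of -0.58, and all 20 interferon-stimulated genes were lower, with a median of -0.92, beside 83.5% of the 7772 genes lower and a median of -0.25. One female room air lung stood far above the rest. The 54 interferon-stimulated genes summed to 4903 CPM in room air female F6 and to 1123.5 to 1753 CPM in the other female lungs. The part of this lung in the median of the interferon-stimulated genes was not tested.

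**Figure D4:**
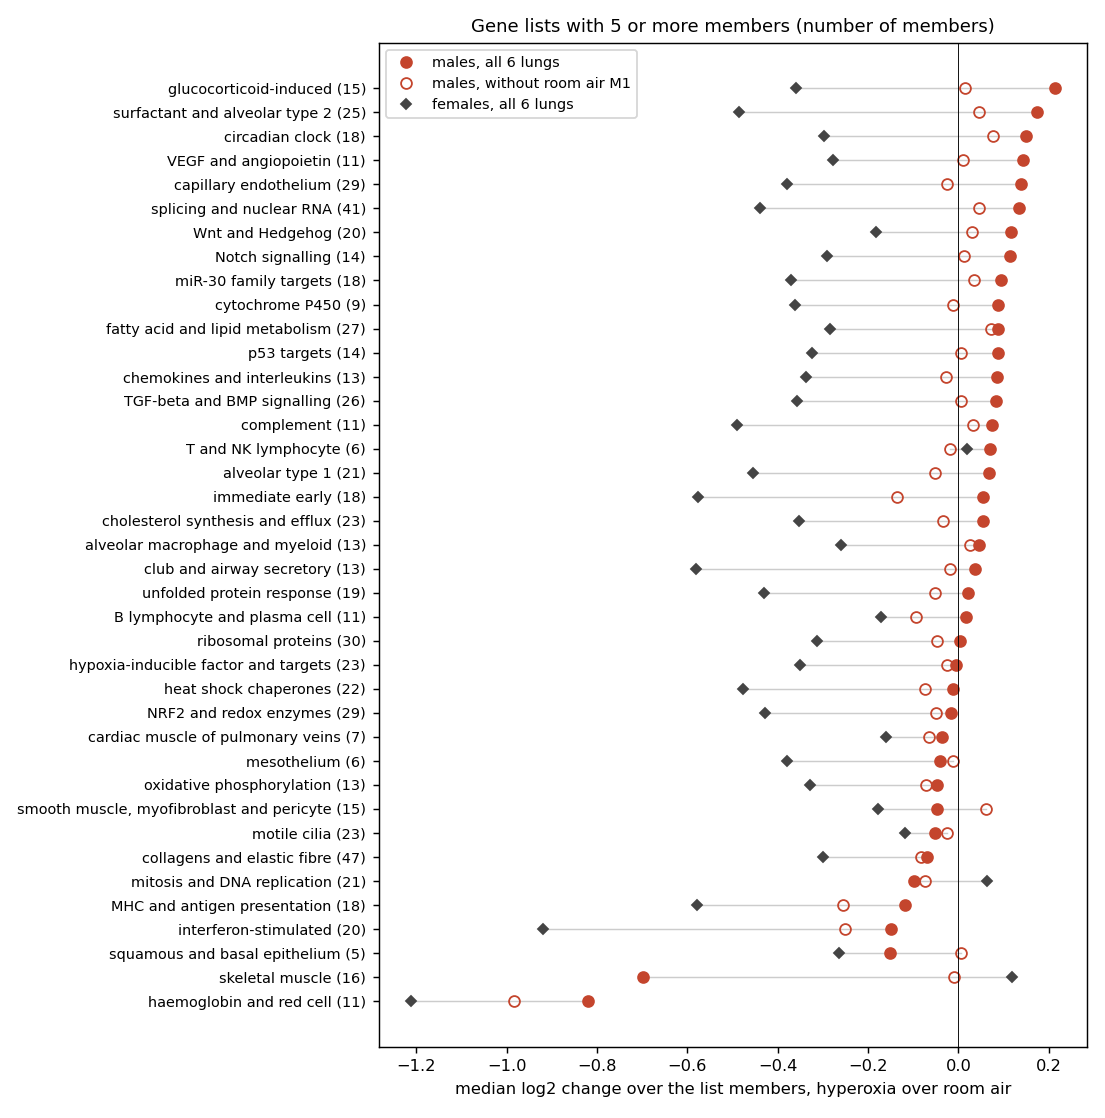
Median log2 change, hyperoxia over room air, of the gene lists with 5 or more well-counted genes (number in brackets), in males with all lungs (filled circles), in males without room air M1 (open circles) and in females (diamonds). Hemoglobin and red cell genes have the lowest median in each of the 3, at -0.82, -0.98 and -1.21, skeletal muscle goes from -0.70 to -0.01 without room air M1, and most lung lists lie within 0.25 of 0 in males.

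Surfactant and alveolar type 2 genes had a median log2 change of 0.17 over 25 genes with all lungs and of 0.05 without room air M1, with 20 and 17 genes higher. Capillary endothelial genes went from 23 of 29 higher (median 0.14) to 12 of 29 (median -0.03), Notch genes from 13 of 14 (median 0.11) to 8 of 14 (median 0.01), and splicing genes from 37 of 41 (median 0.13) to 28 of 41 (median 0.05). Without room air M1 the capillary and Notch lists were thus close to evenly split. Of all 7772 genes 67.5% stood higher with all lungs (median 0.05) and 52.8% without room air M1 (median 0.01). *Dll4*, the Notch ligand of vessels, had 70.3, 39.7 and 50.4 CPM after hyperoxia and 37.3, 63.0 and 50.7 CPM in room air. The groups overlapped throughout, and its log2 change was 0.09 with all lungs (SE 0.22) and -0.08 without room air M1.

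The seed by which miR-30a recognizes mRNAs is not lost with the gene, since relatives made from other loci carry the same letters. The mature sequences are shown for that reason, as RefSeq gives them on GRCm38.p6, with bases 2 to 8, the seed, in capitals. None of them was measured in these libraries. Of 18 well-counted genes listed as targets of the family, 15 stood higher after hyperoxia with all lungs (median log2 change 0.10) and 12 without room air M1 (median 0.03), and 1 had the groups apart upward (background 2.73%), the signal transducer gene *Smad1* with 43.6, 35.5 and 44.1 CPM against 32.5, 35.3 and 35.0 CPM. The margin was 35.49 against 35.30 CPM, and after rescaling without room air M1 the groups were no longer apart. *Lox*, with the largest log2 change of this list (0.74, and 0.56 without room air M1), had overlapping groups. Among all 7772 genes the shares higher were 67.5% with all lungs and 52.8% without room air M1.
miR-30a-5p, chr1:23272274-23272295 (plus strand): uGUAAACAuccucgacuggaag
miR-30c-5p, chr1:23291714-23291736 (plus strand): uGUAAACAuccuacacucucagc
miR-30e-5p, chr4:120772660-120772681 (minus strand): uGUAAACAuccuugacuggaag

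The most negative log2 changes of all belonged to skeletal muscle genes and were not present without room air M1. *Ttn*, the giant spring protein of muscle, had 3950 CPM in room air M1, 254 and 361 CPM in room air M4 and M5 and 233, 323 and 286 CPM in the hyperoxia lungs, so that its log2 change of -2.44 became -0.13 without that lung. *Myh8*, the perinatal myosin, had 402 CPM in room air M1 and 21.6 to 36.6 CPM in the others, and went from -2.44 to -0.12. Over the 16 well-counted muscle genes the median went from -0.70 to -0.01. *Des*, which muscle of every kind expresses, and *Aldoa*, the glycolytic enzyme abundant in skeletal muscle, went from -0.77 to -0.04 and from -0.67 to -0.18, and *Aldoa* had 237 CPM in room air M1 against 66.4 to 115 CPM elsewhere. Both were called lower with 2 and with 3 RUVr factors, where 0.133% and 0.164% of all genes tested were called lower. The squamous gene *Dmkn* had 55.5 CPM in room air M1 and 18.5 to 25.04 CPM in the others, and its log2 change turned from -0.57 to 0.05. Of the 7772 genes 18 had a log2 change that was over 0.5 higher without room air M1, and 1726 changed sign.

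**Figure D5:**
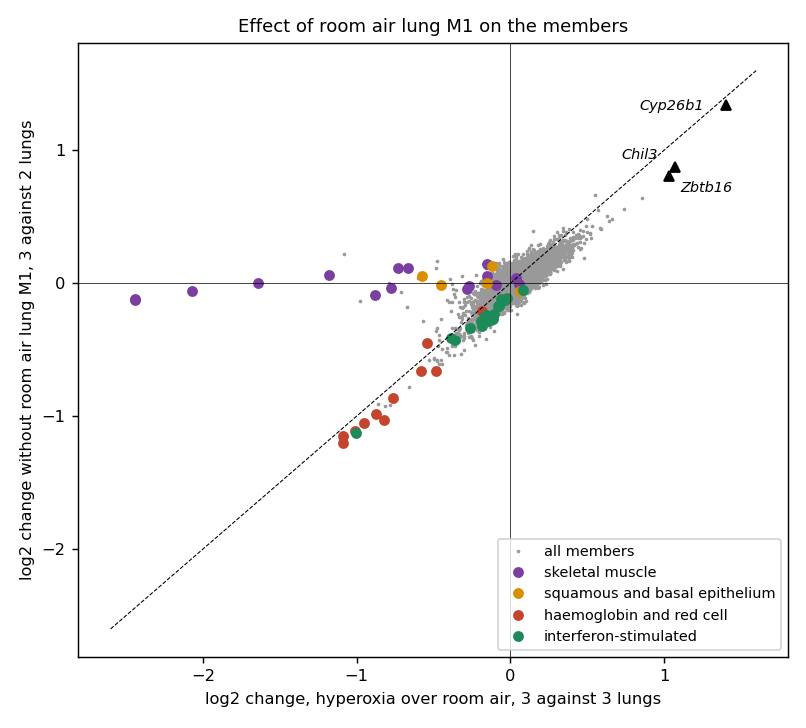
Log2 change of each of the 7772 genes with all 6 male lungs (horizontal axis) and without room air lung M1 (vertical axis), with a dashed line of equal values. Skeletal muscle genes run from -2.44 to 0.06 on the horizontal axis, with a vertical median of -0.01. The 5 squamous genes run from -0.57 to 0.06, with a vertical median of 0.01. Hemoglobin and red cell genes lie mostly below the dashed line at -0.18 to -1.09 on the horizontal axis, and *Cyp26b1* lies near the line at 1.40 and 1.34.

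Apart from identity, the genes whose groups were apart were not longer than the rest. The median exon length was 6179 bases for the 157 higher genes, 6389 for the 98 lower genes and 6391 for all 7772. Their levels were lower, with a median of 29.7 CPM for the higher and 38.0 for the lower genes against 45.5 CPM, and the estimated share of background reads was larger, at 26.7% and 23.7% against 17.7%. The 12 named decreases differed from this, with a median level of 130 CPM and a background share of 5.14%.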

How the data were processed

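RNA-Seq of 12 *miR-30a*-/- mouse lungs was analysed, 3 per sex and exposure, grouped by the labelled sex and treatment, with replicate numbers from the titles. According to the sources, reads were cleaned with Trim Galore, aligned to mm10 with STAR and counted with featureCounts, and the authors deposited raw counts per gene, unnormalized; versions are not given in the sources used here. Library kits differ between the sources: the study's methods name QIAseq Stranded Total RNA and the labels NEBNext Ultra II Directional with rRNA depletion. Each column matched 1 sample, with 0 columns left over. The largest share of well-counted genes with equal counts in a pair of libraries was 0.785%, so no library was a copy of another.

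Counts were fitted with edgeR 4.0.16 in R 4.3.3 (upper-quartile scaling, filterByExpr, robust quasi-likelihood, 4 groups over 12 libraries), and a call needed a fold over 1.5 and a p under 0.05 after Benjamini-Hochberg adjustment across all 45828 genes. All tests were two-sided. The biological coefficient of variation was 0.177. Groups were apart when every CPM of one lay above every CPM of the other. The ComBat-seq step of the study, made with wild-type libraries, was not repeated, and RUVr, whose number of factors is not given in the sources used here, was an alternative (1, 2 or 3 factors, computed from deviance residuals). Nothing states whether lungs came from separate litters, so p-values measure the spread between these lungs.

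Named genes were, among genes with the groups apart, the 12 largest positive and negative log2 changes with all lungs and without room air M1, then 2 genes with the smallest unadjusted p from each of 41 gene lists, *Dll4*, and *Mir30a*, *Xist* and *Ddx3y* as label checks. *Xist* had 148 to 210 counts in males and 8834 to 27296 in females. The rule, the genes and the lists were chosen with earlier results of these data known. List sums run over all tested genes of a list, list medians over its well-counted genes. Background was gauged by the median read density per exon length of 1490 receptor genes, with lengths from GENCODE mouse release 21. Totals ran from 8763033 to 16741694 counts per library, 3 counts stood at 0.191 to 0.327 CPM, and such floors cover counting error only. The fit was tested on simulated data. Alternatives were TMM, DESeq2 1.42.0, other filters, male libraries alone, RUVr, the adjusted p alone, each lung left out and other count minimums. Figures were made with Python 3.11.15 and matplotlib 3.10.9.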

Additional observations from a re-analysis of the deposited data

How the results depend on the processing

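The number of well-counted genes called in males was 0 in the main fit, under TMM, DESeq2, no filter, 10 counts in every library, the adjusted p alone and with each lung left out (0 to 0), and under member rules of 100 or 500 counts or without room air M1. It was 1 (higher) with the male libraries alone (0.00229% of all genes tested), 2 higher with 1 RUVr factor (0.0131%), 5 higher and 2 lower with 2 factors (0.0196% and 0.133%) and 5 higher and 2 lower with 3 factors (0.0218% and 0.164%), and 2 lower (0.0109%) when receptor share entered as a covariate, an alternative chosen after seeing the data. The interaction of sex and hyperoxia called 0 genes in the main fit and 399, 419 and 419 with 1, 2 and 3 RUVr factors (4.59%, 4.84% and 5.22% of all genes tested). The cause was not tested.

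Genes with the groups apart numbered 157 upward and 98 downward (background 2.73% and 3.89%). With 1 lung left out they numbered 219 to 1757 and 141 to 412 (background 5.38% to 9.56% and 6.71% to 13.4%), where fewer lungs separate more easily. Upward genes numbered 94 under TMM, where the share over all genes tested was not computed. The rule of 100 counts (12771 genes) gave 309 and 220, and that of 500 counts (2300 genes) gave 14 and 13. The background of these 2 rules is that of the main fit, 2.73% and 3.89%. Of 1515 log2 changes (101 named genes, 15 alternatives) 1497 kept direction and side of the threshold and 12 passed it newly. The 6 that reversed were *Cbr2* (-0.035 without hyperoxia M1; -0.035 to 0.47 with 1 lung left out), *C7* (0.081 without hyperoxia M2; -0.40 to 0.081), *Dmkn* (0.053 without room air M1; -0.81 to 0.053) and *Dll4* (-0.083 without room air M1, -0.15 without hyperoxia M1, -0.028 with receptor share; -0.15 to 0.29). Depth limits genes near 200 counts in hyperoxia M2 most. No paired analysis was possible because the male groups share only replicate number 1.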

Other observations

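Some well-counted genes were called only in alternative fits and were chosen here after their values were seen. With RUVr factors removed these included *Mylip*, *Inmt* and *Fmo2*. *Mylip*, the ubiquitin ligase that removes the LDL receptor and, like *Abca1*, is a target of the sterol receptor LXR, had 57.4, 39.7 and 61.5 CPM in hyperoxia M1, M2 and M3 and 28.2, 40.6 and 34.0 CPM in room air M1, M4 and M5. Hyperoxia M2 lay just below the highest room air lung, and the log2 change was 0.63 (SE 0.19) in the main fit and 0.51 without room air M1. *Fmo2*, the flavin monooxygenase typical of lung, had 991, 489 and 909 CPM against 296, 537 and 488 CPM (log2 change 0.85, SE 0.33), and *Inmt*, an amine methyltransferase abundant in lung, had 625, 336 and 509 CPM against 239, 407 and 332 CPM (log2 change 0.59, SE 0.31). For *Fmo2* and *Inmt* the log2 changes are with all lungs only. In all 3 genes hyperoxia M1 and M3 were above every room air lung, hyperoxia M2 was not, and room air M1 was the lowest room air lung. In the females their log2 changes were 0.02, -0.12 and -0.15.

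With the share of receptor reads as a covariate, *Ccnd1* and *Serpinh1* were called lower in edgeR's quasi-likelihood test, with log2 changes of -0.62 (SE 0.10, adjusted p 0.00133) and -0.67 (SE 0.11, adjusted p 0.00353). *Serpinh1*, the chaperone that collagen needs to fold, had 179.8, 83.9 and 121.5 CPM after hyperoxia and 162.2, 202.7 and 180.1 CPM in room air, so hyperoxia M1 lay within the room air range and the others below it. In that fit 38 of the 47 collagen and elastic fiber genes were lower (median log2 change -0.16), as were all 11 hemoglobin and red cell genes (median -0.81), and alveolar type 2 and capillary genes had medians of 0.02 and -0.01. The adjusted p of *Cyp26b1* there was 0.544.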
